A study of Mus musculus with 10 samples.

Results

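The genes described here encode the subunits of the constitutive proteasome. They were taken as every gene whose symbol is Psma, Psmb, Psmc or Psmd followed by a number, without the interferon-induced Psmb8 and Psmb9, that had a probe set assigned to 1 gene on the array. The rule gave 37 of the 18193 genes with such a probe set: 17 of the core particle, 17 of the regulatory particle and 3 chaperones of regulatory particle assembly. Each gene was read from its probe set with the highest mean signal over the 10 arrays, and 36 of the 37 had a mean signal above 91, the median of all values, as required for testing. The gene below it was Psmb11, a core subunit of the thymus, with signals from 8.1 to 145.7. The symbol rule used no measured value. It also takes in genes that are not constitutive subunits: the inducible Psmb10, the testis subunit Psma8, the thymus subunit Psmb11 and the chaperones Psmd5, Psmd9 and Psmd10. Psma8 had a median signal of 83.1 and passed the filter through a single high array. Signals of the 11-week pools are given with the female pool first.

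Liver RNA came from mice of mixed 129/B6 strain that were wild-type or Gnmt knockout (Gnmt -/-), and was hybridised to 10 Affymetrix arrays. The Gnmt product, glycine N-methyltransferase, uses S-adenosylmethionine and is plentiful in liver. At 11 weeks there were 4 arrays, each of RNA mixed from 3 mice of 1 sex, with 1 female and 1 male pool of each genotype. The other 6 arrays were single tissues of aged knockout mice: dysplastic nodule tissue and adjacent liver of a 21-month female, and hepatocellular carcinoma (HCC) with its adjacent liver from a male of 18 months and from a female of 14 months. Lesion and adjacent liver of 1 sex and age were taken as 1 mouse, which the labels do not state. No aged wild-type liver was analysed here. The p-values and standard errors refer to pools or single tissues. With 1 or 2 residual degrees of freedom per fit, they rest mainly on a spread shared across all genes.

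The proteasome degrades proteins tagged with ubiquitin. Its core is a barrel of outer alpha rings, which gate the channel, and inner beta rings, which hold the catalytic sites. The regulatory particle caps the barrel: its base holds the ATPases that unfold substrates, and its lid holds the enzyme that removes ubiquitin. Subunit genes are widely transcribed, and the bZIP factor NRF1 (Nfe2l1) raises them together when proteasome activity falls, through antioxidant response elements that NRF2 (Nfe2l2) can also bind.

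Promoter sequence is shown for 4 members. Psmd13 and Psma6 had the 2 largest differences between the genotypes, though neither was called, and Psmb5 and Psmb6 encode catalytic subunits with such an element. The windows run from 250 bases before to 50 after a RefSeq gene start, 5′ to 3′ on the gene's strand (GRCm38.p6). They lie at chr7:140882144-140882443 (plus strand) for Psmd13, chr12:55398575-55398874 (plus) for the downstream of the 2 windows of Psma6, chr14:54617946-54618245 (minus) for Psmb5 and chr11:70525107-70525406 (plus) for Psmb6. Capitals mark the letters TGACNNNGC, the core of the antioxidant response element, and CCGGAAG, the core bound by ETS factors, each on either strand.
Psmd13: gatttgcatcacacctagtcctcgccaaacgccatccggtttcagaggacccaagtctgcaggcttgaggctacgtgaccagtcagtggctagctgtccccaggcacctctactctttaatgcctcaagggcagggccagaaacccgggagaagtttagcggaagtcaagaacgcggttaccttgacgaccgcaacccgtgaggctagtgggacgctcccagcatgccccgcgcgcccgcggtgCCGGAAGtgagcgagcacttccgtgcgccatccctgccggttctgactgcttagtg
Psma6: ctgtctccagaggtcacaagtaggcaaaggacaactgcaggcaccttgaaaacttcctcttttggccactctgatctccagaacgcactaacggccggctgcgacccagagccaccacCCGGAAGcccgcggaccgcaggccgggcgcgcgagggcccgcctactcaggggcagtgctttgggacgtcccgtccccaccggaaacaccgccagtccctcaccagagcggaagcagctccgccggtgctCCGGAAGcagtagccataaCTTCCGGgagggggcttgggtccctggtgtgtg
Psmb5: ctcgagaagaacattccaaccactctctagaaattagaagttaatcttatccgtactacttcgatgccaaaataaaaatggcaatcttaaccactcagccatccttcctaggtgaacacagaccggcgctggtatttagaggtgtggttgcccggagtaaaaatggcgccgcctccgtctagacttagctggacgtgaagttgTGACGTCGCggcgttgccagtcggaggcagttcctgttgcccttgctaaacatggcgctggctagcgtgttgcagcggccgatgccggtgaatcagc
Psmb6: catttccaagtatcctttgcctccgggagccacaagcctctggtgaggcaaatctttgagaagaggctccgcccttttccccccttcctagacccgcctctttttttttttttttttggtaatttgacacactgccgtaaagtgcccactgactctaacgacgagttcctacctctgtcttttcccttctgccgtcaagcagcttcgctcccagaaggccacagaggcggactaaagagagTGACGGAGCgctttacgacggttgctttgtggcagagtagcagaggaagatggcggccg

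A promoter window was on hand for 30 of the 37 genes, as 32 windows. TGACNNNGC stood in 5 of the 32 (15.6%, against 12.4% of all 32851 windows), in Psmb5, Psmb6, Psmc6, Psmd9 and Psmd12. In Psmb5 and Psmb6 its first base lay at -47 and -9 relative to the gene start. The letters CCAAT stood in 12 windows (37.5%, against 37.4%). CCGGAAG stood in 11 windows of 10 genes (34.4%, against 8.86%): Psma6, Psmc1, Psmc2, Psmc6, Psmd2, Psmd4, Psmd6, Psmd11, Psmd12 and Psmd13. None of these 3 motifs contains another, both strands were read, and a match describes the sequence only.

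Every array had been scaled by its authors to the same trimmed mean of 500, and median signals per array ran from 77.4 to 102.4. Gnmt itself was at 59473 and 52140 in wild-type RNA, 245 and 190 in young knockout RNA and between 11.7 and 329 in the 6 aged arrays. The 8 hepatocyte markers summed to between 319261 and 534068 per array. In bulk liver, fewer cells of a type and less RNA per cell cannot be told apart.

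Subunit genes varied little across the series. The standard deviation of a member's log2 signal over the 10 arrays had a median of 0.27, against 0.44 for all 11507 genes tested, and 30 of 36 members lay below the median of all genes. Apart from Psma8, the members tested had mean signals from 705 to 16059, while the genes tested reach down to 91. All genes were not matched to the members for signal level, and its part in the lower spread was not tested. The steadiest was Psmd2, a scaffold of the base, whose signals ran from 4819 to 6479. The most variable were Psma8 with an SD of 1.43, Psmd13 with 0.62 and Psmb10 with 0.53.

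The knockout male pool stood above the other arrays. Its 36 members had a median deviation of 0.33 log2 units from each gene's own mean, against -0.07 for all genes. Of the members 35 of 36 were above their own mean, the exception being Psmd1, and 19 had their highest signal there. These counts were not set against all genes. The knockout male pool also had the lowest median signal of the series, 77.4, under the shared trimmed mean. The part of this in the members' deviation was not tested. The members' median deviation was 0.10 in the knockout female pool, -0.07 and -0.01 in the female and male wild-type pools, and between -0.15 and 0.03 in the 6 aged arrays. Core genes stood farther out in the knockout male pool, with a median deviation of 0.44, than regulatory particle genes, with 0.22; the difference between the particles was not tested.

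**Figure D1:**
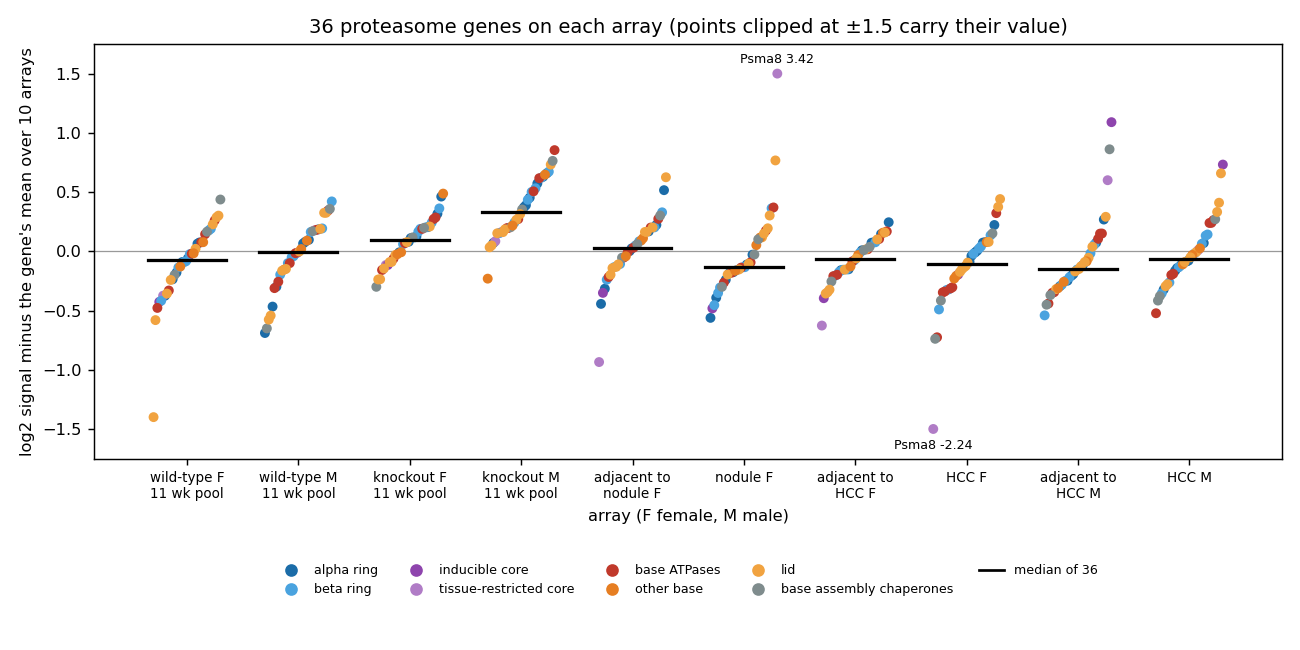
Deviation of each of 36 proteasome genes from its own mean log2 signal, by array and coloured by class; black lines are the medians of the 36. The knockout male pool has the highest median (0.33), and Psma8 leaves the scale in the nodule (3.42) and in the female HCC (-2.24).

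Knockout liver of 11 weeks was first compared with wild-type liver of the same age. No member passed an adjusted p of 0.05 in the limma model with sex as a term, where 0.765% of all genes passed (42 higher and 46 lower). Proteasome genes nevertheless lay mostly above 0: 31 of 36 had a higher fitted level in knockout liver, against 45.6% of all genes. Their median difference was 0.27 log2 units, against -0.05 for all genes. An unadjusted p below 0.05 was reached by 6 of 36 members, each higher in knockout, against 8.83% of all genes that were higher at that p. The members' median was 0.20 (29 of 36 above 0, all genes at 0.03) after quantile normalization, a distance from all genes of 0.17 in place of 0.32, and 26 of 36 were above 0 with the mean of all probe sets of a gene.

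The largest difference was that of Psmd13, a scaffold subunit of the lid. Its signals were 677 and 1240 in female and male wild-type RNA and 1703 and 3025 in knockout RNA. In the aged arrays it lay between 1664 in the female HCC and 2872 in the male HCC. Both knockout pools, and all 6 aged knockout arrays, were above both wild-type pools. The fitted difference was 1.29 ± 0.22 (SE, 2 pools a side; adjusted p = 0.0553, limma), with 1.31 in females and 1.28 in males. With any 1 pool left out, in a model over all remaining arrays, the difference lay between 1.13 and 1.46. When genes and probe sets were selected by mean log2 signal instead of mean signal, the adjusted p was 0.0479, and over the alternatives it ran from 0.009, after quantile normalization, to 0.811, without the knockout male pool. The 2 further probe sets of Psmd13 above the filter disagreed, the brighter at 0.66 and the dimmer, with a mean signal of 225, at -0.45.

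Psma6, a subunit of the alpha ring, followed. It was at 9009 and 7237 in female and male wild-type RNA, 16113 and 16006 in knockout RNA, 7914 in the nodule and between 11728 and 14076 in the other 5 aged arrays. The knockout pools did not overlap the wild-type pools, whereas the nodule lay between these. The difference was 0.99 ± 0.19 (adjusted p = 0.069, limma), and the next brightest probe set of the gene gave 0.59. The probe set used carries a suffix for possible cross-hybridisation.

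Among the alpha ring genes, 7 of 7 were above 0, with a median of 0.34 and no adjusted p below that of Psma6. Psma7 followed with 0.70 ± 0.25, but its difference was 0.31 in females and 1.10 in males. Of the beta ring genes 6 of 7 were above 0 (median 0.39), and Psmb2 was at -0.08. The 3 subunits with catalytic sites were all above 0, as the following signals show.

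Psmb5, which carries the chymotrypsin-like site, was at 5033 and 5870 in female and male wild-type RNA and 7964 and 9104 in knockout RNA. The difference of 0.65 ± 0.19 (adjusted p = 0.157, limma) was 0.66 in females and 0.63 in males. In aged liver it was at 8459 beside the nodule, 8663 in the nodule, 7093 and 5382 in the adjacent liver and HCC of the female, and 6047 and 5260 in those of the male. The signals of the nodule mouse were therefore within the range of the young knockout pools, and both HCC signals were within that of the wild-type pools.

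Psmb6, with the caspase-like site, was at 4965 and 5085 in the wild-type female and male pools and 5711 and 8099 in the knockout pools, a difference of 0.44 ± 0.21. It lay between 4427 and 5811 in the aged arrays, so the knockout male pool stood alone. Psmb7, with the trypsin-like site, was at 14468 and 15456 in wild-type RNA and 18297 and 18834 in knockout RNA, a difference of 0.31 ± 0.18. It was lowest in the nodule, at 11597, and between 14305 and 18304 in the other aged arrays.

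All 6 base ATPase genes were above 0, with a median of 0.28. Psmc3 led with 0.77 ± 0.20 (adjusted p = 0.128, limma), from 3974 and 4030 in the wild-type pools to 6098 and 7679 in the female and male knockout pools. Psmc5 was the lowest, at 0.03. The 3 other base genes, Psmd1, Psmd2 and Psmd4, lay between 0.07 and 0.27. Of these Psmd4 encodes a receptor for ubiquitin chains.

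The 8 lid genes were divided. Besides Psmd13, Psmd14, Psmd6 and Psmd8 were above 0, and Psmd3, Psmd7, Psmd11 and Psmd12 were below, with a median of 0.09. Psmd14 encodes the enzyme that cuts ubiquitin from substrates, and its difference was 0.59 ± 0.22 (adjusted p = 0.225, limma). Psmd7, the partner of Psmd14 in the lid, was the lowest member at -0.27 ± 0.22. Its signals were 1709 and 1596 in wild-type RNA, 1312 and 1432 in knockout RNA, and between 1257 and 1553 in the aged arrays. All aged and young knockout signals of Psmd7 were thus below both wild-type signals.

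Psmd3 was at 2417 and 2059 in female and male wild-type RNA, 1746 and 2134 in knockout RNA and between 1853 and 2312 in the aged arrays. Its genotypes overlapped, and the difference was -0.21 ± 0.23. The 3 assembly chaperones were above 0, with a median of 0.08. Psmd10 (gankyrin), known as a protein raised in human liver cancer, was at 588 and 426 in wild-type RNA and 547 and 782 in knockout RNA, and these overlapped.

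**Figure D2:**
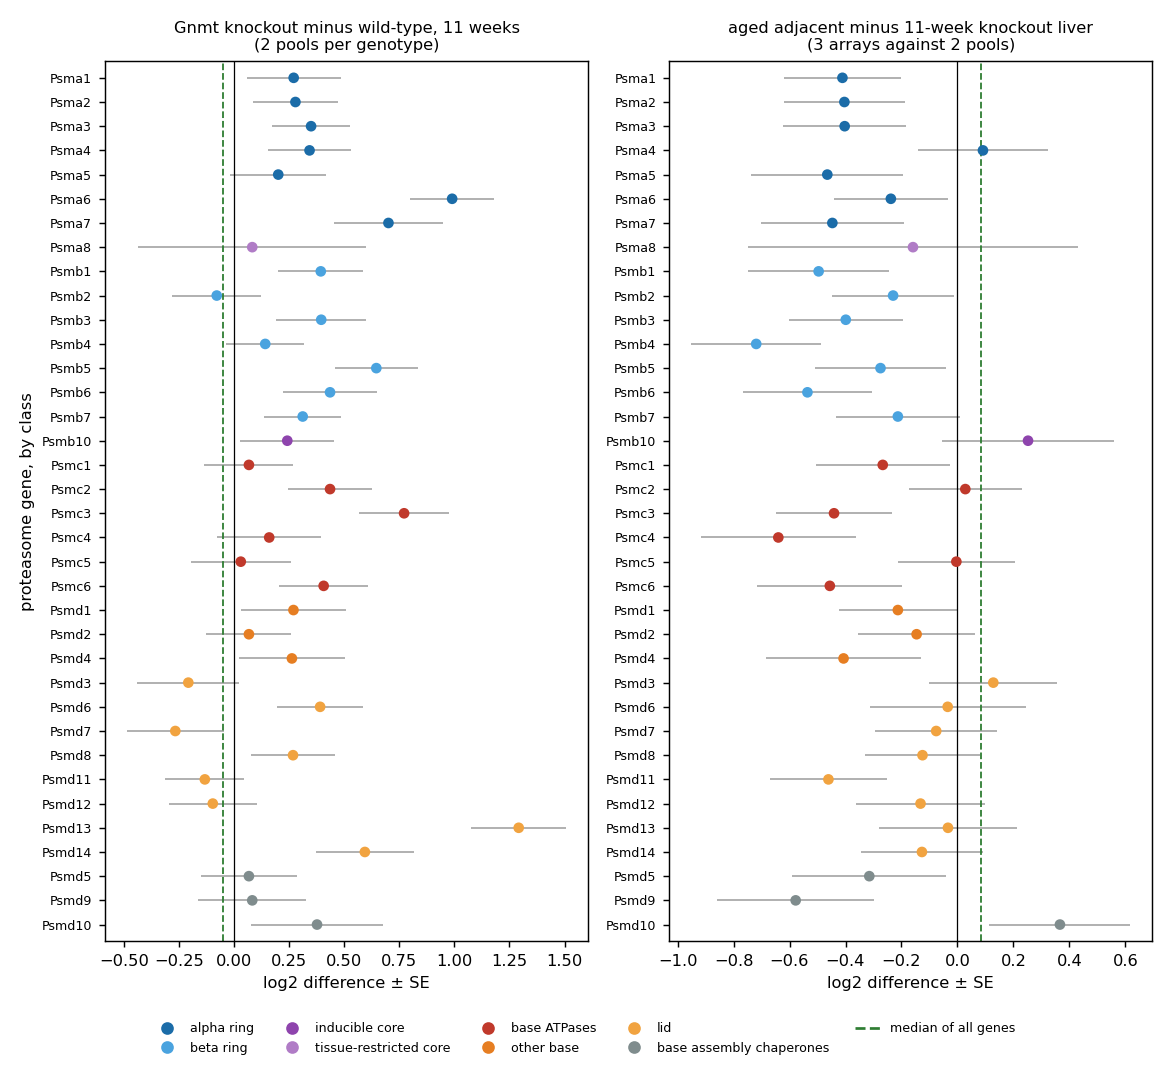
Fitted log2 difference with its standard error for 36 proteasome genes, in knockout minus wild-type liver at 11 weeks (left) and in adjacent liver of aged knockout mice minus liver of 11-week knockout mice (right). On the left 31 of 36 points are right of 0, on the right 31 of 36 are left of 0; the dashed line is the median of all genes tested, and both panels share the young knockout pools.

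Each sex gave 1 pool per genotype. Between the female pools 24 of 36 members were higher in knockout, with a median of 0.21, against 45.9% of all genes. Between the male pools 30 of 36 were higher, with a median of 0.39, against 47.5%. In both sexes 22 of 36 members were higher (61.1%, against 29.1% of all genes) and 4 were lower (11.1%, against 35.7%), namely Psmb2, Psmd7, Psmd11 and Psmd12. Core genes were higher in 14 of 16 cases in either sex. The regulatory particle had 10 of 17 higher in females and 13 of 17 in males.

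**Figure D3:**
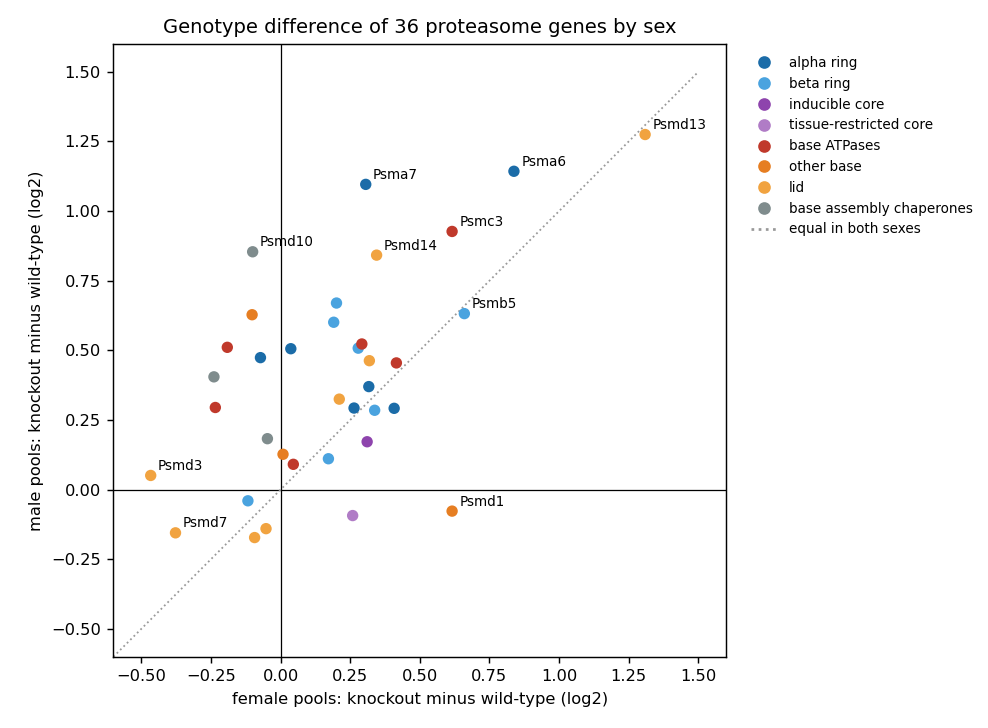
Knockout minus wild-type log2 difference of each of 36 proteasome genes in the male pools (vertical) against the female pools (horizontal), coloured by class, with 1 pool per genotype and sex. Psmd13 lies near the line of equal difference, while Psma7, Psmd14 and Psmd10 lie above it and Psmd1 below.

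The size of the shift moved with the knockout pools. With the male pool left out, in a model over all remaining arrays, 23 of 36 members were above 0 and the median was 0.18; without the knockout female pool it was 0.46. Other features of these pools moved with genotype, and their part in the result was not tested. The 7 endothelial markers tested were all lower in knockout liver (1 of 7 called), and the 8 on the array summed to 11195 and 8313 in wild-type against 4279 and 4272 in knockout. The 10 macrophage markers were lower too (0 called; sums of 27754 and 18488 against 16102 and 15410). All 8 hepatocyte markers were also lower (0 called), with a median of -0.13 against -0.05 for all genes. Their sums overlapped, at 497278 and 454931 in wild-type against 459763 and 399566 in knockout. Cell cycle genes were higher in 16 of 17 cases (0 called), with sums of 5082 and 5332 in wild-type, 6276 in the knockout female and 12376 in the knockout male pool. The ratio of the 3′ to the 5′ Actb control probe sets was 2.62 and 2.60 in wild-type and 3.38 and 3.18 in knockout. No marker of any list was at 0 on any array.

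Other genes of the pathway did not lie to one side. Of the 30 tested, none was called (3 higher and 1 lower at an unadjusted p below 0.05), with a median of 0.02. All 5 assembly factors of the core were above 0, and Psmg4 had the largest difference, 1.28 ± 0.22 (adjusted p = 0.0584, limma). Psmg4 was at 645 and 809 in the female and male wild-type pools and at 1574 and 2005 in the knockout pools. In the aged mice it was at 1458 beside the nodule and 950 in it, 1700 and 1102 in the female adjacent liver and HCC, and 991 and 607 in the male ones.

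Nfe2l2, which encodes NRF2, was at 2286 and 2053 in wild-type RNA and 4769 and 4234 in female and male knockout RNA, a difference of 1.05 ± 0.20 (adjusted p = 0.0699, limma). In the aged knockout arrays it lay between 4698 and 8487, above both wild-type pools. The 12 NRF2 target genes tested did not share a direction in young knockout liver: 6 were above 0 and 6 below, with a median of 0.11. Of these 1 was called higher (Pgd, 2.08) and 1 lower (Gclc, -1.37). Nfe2l1, which encodes NRF1, was at -0.35. Txnl1, a thioredoxin-like protein bound to the proteasome, was at 0.68, and Nploc4, a cofactor of the unfolding ATPase Vcp, at -0.64. The excluded Psmb8 and Psmb9, which replace constitutive catalytic subunits after interferon, were at -0.23 and 0.37.

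The sexes were compared at 11 weeks with genotype as a term. No member was called in the limma fit, where 0.243% of all genes were, and 1 of 36, Psmd13, was lower in females at an unadjusted p below 0.05, against 3.54%. In females 32 of 36 members had a lower fitted level, against 46.3% of all genes, with a median of -0.17. The median was -0.10 both after quantile normalization (all genes at -0.03) and with the mean of all probe sets of a gene, where 11 of 36 were above 0 in place of 4. Psmd13 had a female minus male difference of -0.86 between the wild-type pools and -0.82 between the knockout pools, and a fitted difference of -0.84 ± 0.22 (adjusted p = 0.353, limma). Its next brightest probe set gave -0.36, the mean of its probe sets 0.01, and leaving out any 1 pool -0.54 to -0.53.

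Between wild-type pools 24 of 36 members were lower in the female with a median of -0.03, and between knockout pools 32 were, with a median of -0.25. Without either knockout pool, the model over all remaining arrays put 19 of 36 members above 0 and the median at 0.01. With each pool left out in turn, wild-type pools included, the median ran from -0.05 to 0.01. That model also takes in the aged arrays, so it cannot show whether the sex difference hangs on the knockout pools. The cell cycle list moved with this difference, 16 of 17 genes being lower in females, and its part was not tested. Psmc4, a base ATPase, was at 4825 and 5112 in female and male wild-type RNA and 4224 and 7294 in knockout RNA (-0.43 ± 0.24). Psmd1 had the largest difference the other way, 0.37 ± 0.24, with 3729 and 3663 in wild-type RNA and 5722 and 3472 in knockout RNA, so its difference lay in the knockout pair.

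Adjacent liver of the 3 aged knockout mice was compared with the 2 young knockout pools, the same pools as in the genotype comparison. Here 31 of 36 members had a lower fitted level in aged liver, against 42.7% of all genes, with a median of -0.25 against 0.09. No gene of the array was called (0% of all genes). At an unadjusted p below 0.05 1 of 36 members and 4.51% of all genes were lower. The beta ring had 7 of 7 below 0 (median -0.40), the alpha ring 6 of 7 (-0.40), the base ATPases 5 of 6 (-0.35) and the lid 7 of 8 (-0.10).

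Psmb4, a beta ring subunit without a catalytic site, had the lowest value, -0.72 ± 0.23 (adjusted p = 0.393, limma). Its signals were 14181 and 15956 in the female and male young knockout pools, and 10237, 10465 and 7575 beside the nodule, the female HCC and the male HCC. The groups did not overlap, and the wild-type pools, at 12586 and 14771, were also above the aged livers. A further bright probe set of Psmb4 was at 0.24, on the opposite side of 0. Psmc4 was next at -0.64 ± 0.28, with 4224 and 7294 in the young knockout pools and 3461, 3796 and 3167 in aged adjacent liver; its further probe set was at 0.10. Without the knockout male pool or the adjacent liver of the male, Psmb4 was at -0.45 and Psmc4 at -0.22; without the knockout female pool they were at -1.07 and -1.20.

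Psmb10 and Psmd10 had the highest values, and both had their highest signals in 1 mouse. On leaving out arrays, Psmb10 ran from -0.257 to 0.93, whereas Psmd10 stayed above 0, from 0.146 to 0.659. Psmb10, an inducible catalytic subunit that replaces Psmb7 in the immunoproteasome, was at 4269 in the adjacent liver and 3327 in the HCC of the male. It lay between 1425 and 2232 on the other 8 arrays. Psmd10 was at 1245 in the adjacent liver of the same male, 821 in its HCC and between 426 and 782 elsewhere. The 5 neutrophil markers on the array summed to 15016 and 15336 in the tissues of this male and to between 373 and 1651 on the other 8 arrays, and their part in these values was not tested.

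Without the knockout male pool, or without the adjacent liver of the male, 11 of 36 members were above 0 and the median was -0.13; without the knockout female pool it was -0.45. Age, a lesion beside the tissue, pooling and any array batch cannot be told apart here, and the labels name no batch. The BioC to BioB ratio of the hybridisation controls was 3.90 to 5.09 on the 4 young arrays and 1.45 to 1.84 on the 6 aged ones. Macrophage markers (10 of 10) and neutrophil markers (4 of 4 tested) were higher in the aged livers, and their part was not tested. Of the 30 related genes none was called, and the largest differences were those of Rad23b and Psme3. Rad23b, which carries ubiquitylated proteins to the proteasome, was at 2636 and 2843 in the young knockout pools and 7340, 6553 and 5824 in aged adjacent liver (1.24 ± 0.22, adjusted p = 0.342, limma). Psme3, a nuclear activator of the core, was at 692 and 583 against 1719, 1437 and 1207 (1.11 ± 0.23). For both genes every aged array, lesions included, was above all 4 young arrays.

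HCC was compared with adjacent liver in 2 pairs. No member was called in the limma fit with the mouse as a term, where 0.0869% of all genes were, and 1 of 36 was higher at an unadjusted p below 0.05, against 4.43%. The members were centred on 0: 20 of 36 lay below it, against 50.3% of all genes, and the median was -0.01, turning to 0.01 after quantile normalization. The nodule pair was added for a comparison over 3 pairs of lesion and adjacent liver, which shares the HCC pairs. No member was called there (0.00869% of all genes), 2 of 36 were higher at an unadjusted p below 0.05 (5.81% of all genes), and 20 of 36 lay below 0 (48.8%).

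Those 2 were lid genes. Psmd14 was at 7528 in the nodule against 4087 beside it, 6002 against 3525 in the female HCC pair and 5872 against 4250 in the male HCC pair. Every lesion was above every adjacent liver, and above the young knockout pools at 3747 and 5312 and the wild-type pools at 2947 and 2956. The difference was 0.70 ± 0.18 over 3 pairs (adjusted p = 0.342, limma) and 0.62 ± 0.27 in the HCC pairs (adjusted p = 0.648). Psmd8, a lid subunit needed for the last step of lid assembly, was at 8938 against 6316 in the nodule pair, 9405 against 5705 in the female and 9131 against 7442 in the male HCC pair. Its lesions too were above every other array, the highest of which was the knockout male pool at 8109, and the difference was 0.51 ± 0.18 (adjusted p = 0.442).

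**Figure D4:**
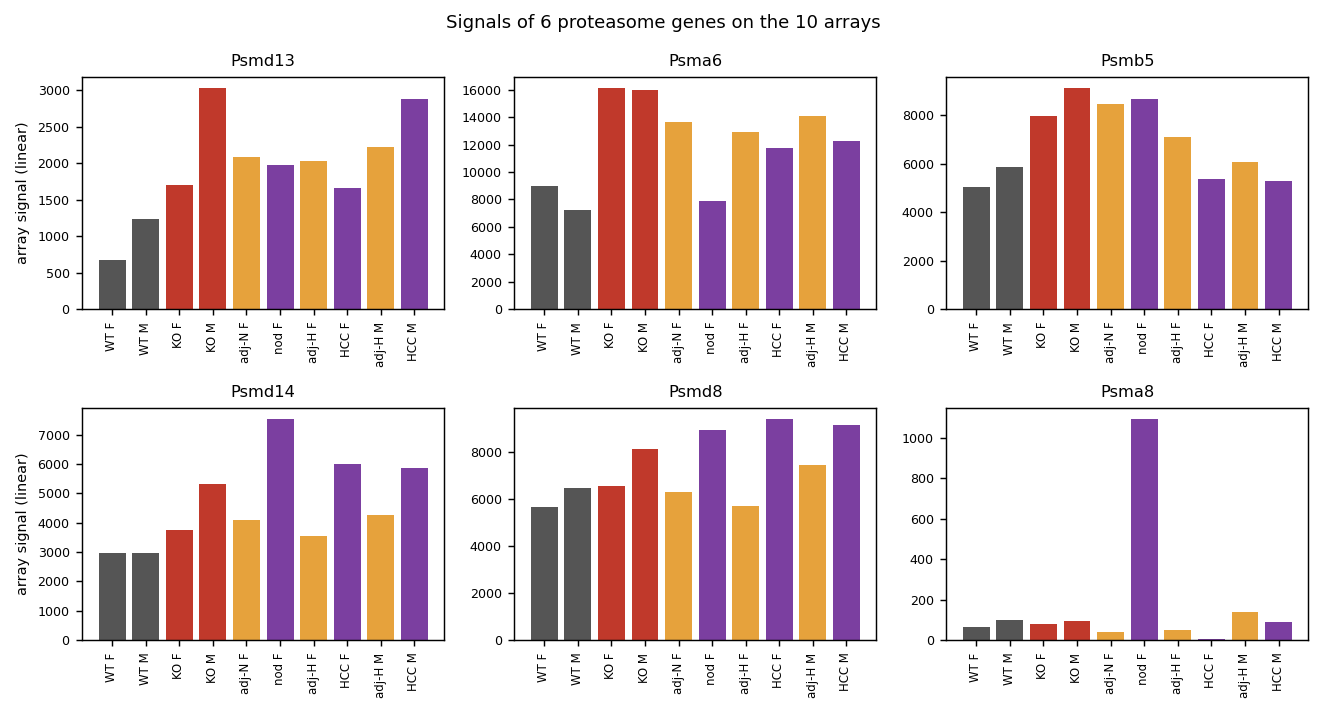
Linear array signal of 6 proteasome genes on each of the 10 arrays, each panel with its own axis (WT wild-type and KO knockout pools of 11 weeks; adj-N and nod, liver adjacent to the nodule and the nodule; adj-H and HCC, liver adjacent to HCC and HCC; F female, M male). Psmd14 and Psmd8 are highest in the 3 lesions, Psmd13 is lowest in the wild-type pools, and Psma8 stands out in the nodule alone.

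Only Psmd11 joined Psmd14 and Psmd8 in being higher in all 3 lesions, so 8.3% of members were, against 16.1% of all genes. Psma4, Psma6, Psmd6 and Psmd9 were lower in all 3, 11.1% against 16.1%. The probe set used for Psmd11 carries a suffix for possible cross-hybridisation and was at 0.21 over all lesions. The further probe sets of Psmd11 above the filter, from bright to dim, were at -0.12, -0.09, 0.19 and -0.01. Psmd9, a chaperone of base assembly, was at 1029 against 1326 in the nodule pair, 755 against 1280 in the female and 949 against 980 in the male HCC pair (-0.39 ± 0.21, adjusted p = 0.605, limma). Psmd6, a lid subunit, was at 5205 against 8647, 4964 against 6003 and 4561 against 5049 in the same order (-0.38 ± 0.20). The signal of Psmd6 beside the nodule was the highest of its 10 arrays. A further probe set of Psmd9 above the filter, with a mean signal of 223, was at -0.45 over all lesions but at 0.29 in the HCC pairs.

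Psmc4 was at 2428 against 3796 in the female and 2798 against 3167 in the male HCC pair (-0.41 ± 0.27, with its further probe set at 0.20), and at 5211 against 3461 in the nodule pair, which went the other way. Psmd10 was at 755 against 565 in the female HCC pair, 821 against 1245 in the male HCC pair and 665 against 652 in the nodule pair. Psmb10 was at 1740 against 1514, 3327 against 4269 and 1425 against 1562. Neither gene had 1 direction over the pairs.

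The excluded inducible subunits were the related genes farthest above 0 in HCC. Psmb8 was at 1377 against 697 in the female and 3134 against 1853 in the male HCC pair (0.86 ± 0.27, adjusted p = 0.437, limma), and at 1141 against 978 in the nodule pair. Psmb9 was at 1828 against 838 and 1412 against 1186 in the HCC pairs, but at 746 against 982 in the nodule pair. Interferon response genes were higher in HCC in 9 of 15 cases, with 0 called. Psmg4 was lower in all 3 lesions (-0.64 ± 0.18, adjusted p = 0.356). Cell cycle genes were higher in 14 of 17 cases in HCC and 15 of 17 over all lesions, with 0 called. Over all lesions endothelial markers (7 of 7), NRF2 targets (12 of 12) and macrophage markers (8 of 10) were also higher and hepatocyte markers (7 of 8) lower, with 0 called. In the HCC pairs alone, endothelial markers were higher in 7 of 7 cases, NRF2 targets in 6 of 12 and macrophage markers in 5 of 10. Hepatocyte markers were lower there in 5 of 8 cases. The part of these lists in the values of Psmd14 and Psmd8 was not tested.

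**Figure D5:**
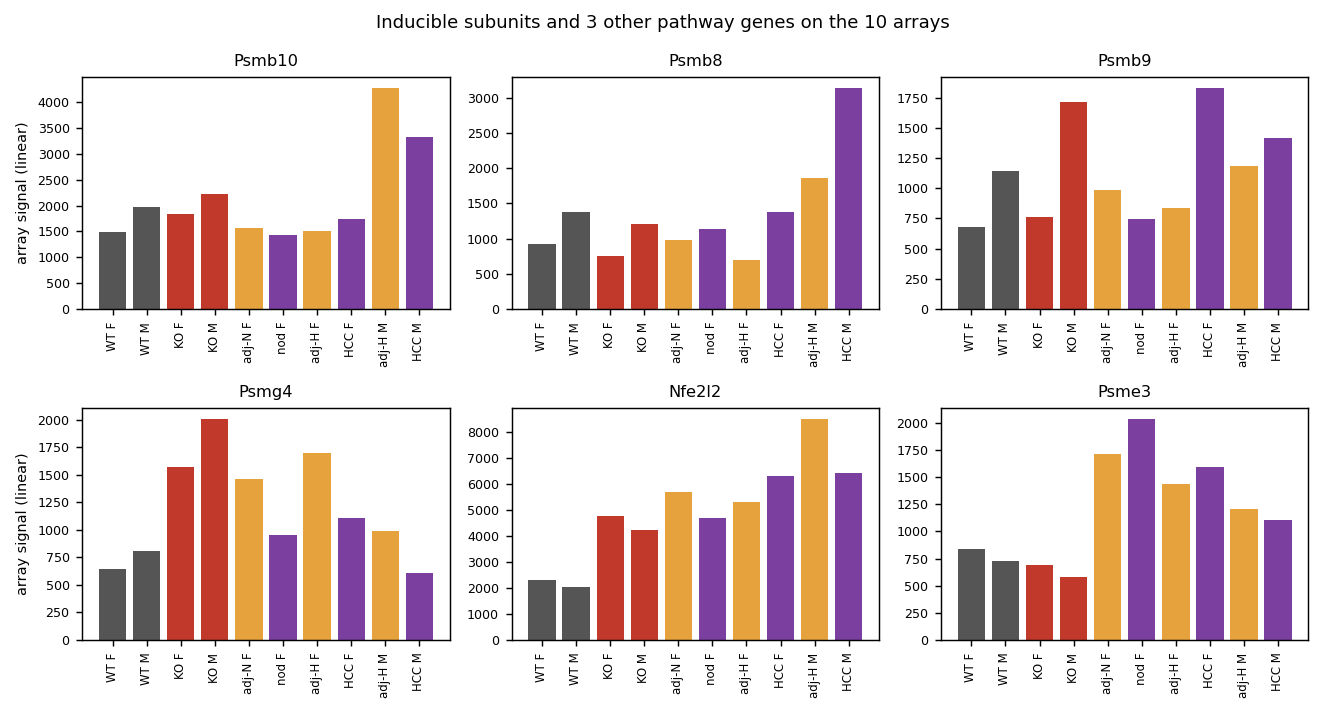
Linear array signal of the inducible subunits Psmb10, Psmb8 and Psmb9, the core assembly factor Psmg4, Nfe2l2 (NRF2) and the activator Psme3 on each of the 10 arrays, each panel with its own axis; array names as in the plot of 6 proteasome genes. Psmb10 and Psmb8 are highest in the tissues of the male with HCC, Nfe2l2 is lowest in the wild-type pools, and Psme3 is higher on all 6 aged arrays than on the 4 young ones.

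The nodule was also set against its adjacent liver alone, with 1 array on each side and therefore untested. Psma8 was the member that differed by at least 1 log2 unit, against 8.63% of all genes at least 1 unit higher and 4.36% lower. It had passed the filter through its nodule signal, so nothing is read from that count. Psma8 encodes an alpha subunit that takes the place of Psma7 in the testis. Its signal was 1092 in the nodule and 37.4 beside it, the latter below the filter level of 91, and between 5.2 and 140.3 on the other 8 arrays. Psma7 was at 4941 in the nodule and 5047 beside it. In the HCC pairs Psma8 went the other way at low signal, 5.2 against 50.3 and 87.4 against 140.3, so its value over all lesions rested on the nodule.

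Across the members 24 of 36 members were lower, against 47.6% of all genes, with a median of -0.09. Psma6 was at 7914 against 13647, and Psmb7 at 11597 against 18304. The 12 NRF2 target genes on the array summed to 136215 in the nodule and to between 32860 and 67275 on the other 9 arrays. Psmb5 was at 8663 in the nodule against 8459 beside it, and Psmb6 at 4795 against 4799.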

How the data were processed

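Labelled RNA was made from 5 ug of total RNA, per the labels. The deposited values are intensity, 1 linear signal per probe set, which the authors computed with GCOS, per the submitters' processing notes; its version and settings are not given in the sources used here. Each deposited array had a trimmed mean of 500, with 2% of values left out per end. Of 45101 probe sets, 64 were controls, 932 listed several genes, and 34945 listed 1 gene, 34741 of them matched by gene ID to RefSeq (GRCm38.p6). Members had 75 probe sets; 18 members had 1.

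The log2 scale was log2(signal + 16.8), where 16.8 is the 20th percentile over the whole table, so differences of low genes are understated. The brightest probe set stood for a gene, and 11507 of 18193 genes had a mean signal above 91. limma 3.58.1 in R 4.3.3 was fitted across these genes (lmFit, eBayes with intensity trend), with Benjamini-Hochberg adjustment and calls at 0.05. Residual degrees of freedom were 1 for genotype, sex and HCC and 2 for all lesions and age, so the error of a gene comes mainly from the prior that all genes share. The number of arrays limits the precision. The procedure was tested on simulated data, whose spread was drawn from the prior that limma had fitted. The simulation therefore cannot show how well that prior describes these arrays. The members and lists were chosen with earlier results of these data known, and selection by mean signal was preferred to selection by mean log2, as the fixed design reads, after both had been computed. Signals per array were given for members called in any comparison, the catalytic subunits, Psmd10 and the 2 members farthest from 0 in each direction of each comparison, and for the related genes farthest from 0; other members shown with signals were chosen after their values were seen.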

Additional observations from a re-analysis of the deposited data

Results flagged for a closer look

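Some proteasome genes went opposite ways in the 2 sexes or genotypes of a comparison, and in each case the difference between them was not tested. Each side is 1 pair of arrays. For knockout minus wild-type, Psmd3, a lid subunit, was at -0.47 in females and 0.05 in males, and Psmd10, a chaperone of base assembly, at -0.10 in females and 0.85 in males. For HCC minus adjacent liver, Psmb10 was at -0.36 in the male and 0.20 in the female pair, Psmd10 at -0.59 and 0.41, and the median of the 36 members at 0.07 and -0.10. For female minus male, Psmd10 was at 0.45 between wild-type pools and -0.50 between knockout pools. Psmd10 thus differed in sign in 3 comparisons, of which genotype and sex share their arrays.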

How the results depend on the processing

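The alternatives were the added constant times 0.5 or 2, quantile normalization, centring on the 75th percentile, no filter, the mean of all probe sets of a gene, no intensity trend, 1 model over all 10 arrays, the covariate or replicate block dropped, and each array or pair left out. Selection by mean log2, and leaving out probe sets with an _s_at or _x_at suffix, were chosen after seeing the data. Where a fit had no degree of freedom left, the array was left out of a model over all remaining arrays, which takes a lone pool to vary like the other groups. Counts and medians kept within their limits in 137 of 154 cases.
For genotype, the count of members called was 1 (Psmd13) with the constant times 0.5, no filter, mean log2 selection and without _s_at or _x_at probe sets, and 2 (Psma6 and Psmd13) after quantile normalization and 75th percentile centring. Genes called numbered 88 in the reported fit and 133, 138, 160, 219, 542 and 258 in these; they were 30 with the mean of probe sets, 1 without the trend, 1 in the model over all arrays and 2 without the sex term. Psmd13 was at 1.30, 1.29 and 1.44 and Psma6 at 0.86 and 1.14 where called. Centring moved the median of all genes from -0.05 to 0.10, the members' median to 0.42, a distance of 0.32 from all genes either way (0.17 after quantile normalization, with a median of 0.20), and the share of called genes that were higher from 47.7% to 69%. Leaving out pools gave members' medians of 0.18 to 0.46, and Psmd3 was at 0.026 without the knockout female pool.
For age the median was -0.44 with centring, -0.16 with the mean of probe sets and -0.45 to -0.13 on leaving out arrays, where Psmb10 ran from -0.257 to 0.93 and was at -0.257 without the knockout male pool or the male adjacent liver. For sex the median ran from -0.048 to 0.013 on leaving out pools and was -0.10 after quantile normalization and with the mean of probe sets. Psmc4 for sex ran from -0.22 to -0.01 on leaving out pools. Psmd13 was at 0.01 with the mean of probe sets, and Psma6 at -0.48 without _s_at or _x_at probe sets and -0.05 without either wild-type pool. The nodule median was -0.21 with centring and -0.17 with the mean of probe sets, and Psma8 over lesions was at -1.10 without the nodule pair. Without the replicate block, the medians for HCC and all lesions were -0.01 and -0.02 and no member was called. Genes called in HCC ran from 0 to 38, without the male pair 165, against 10. For sex they ran from 2 to 71 against 28. For all lesions they were 135 without the male pair against 1, and for age 354 without the knockout female pool and 152 without the liver beside the nodule against 0. The causes were not tested.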
